A study of Mus musculus with 19 samples.

Results

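The 47 genes described here are the matrix metalloproteinases, the ADAMTS proteases and the tissue inhibitors of metalloproteinases of the mouse, chosen by symbol from the 24343 gene symbols of the deposited tables. They were 23 MMP genes, 19 ADAMTS genes, the 4 TIMP genes and Reck, with 61 annotated transcripts between them. Their RNA had been measured by sequencing in stromal, basal and luminal cells that were separated by flow sorting from mouse anterior prostates. The tested animals were diphtheria toxin-treated Lgr5-DTR-eGFP mice, whose Lgr5 locus carries a diphtheria toxin receptor fused to a green fluorescent protein, so that toxin kills cells in which Lgr5 is active. They gave 4 stromal, 3 basal and 3 luminal libraries, and wild type control mice gave 3 libraries of each sort. The comparison asks which transcripts differ in each sorted population after the ablation of Lgr5-expressing stromal cells. The labels name C57BL/6 mice from a commercial breeder and a different source for the Lgr5-DTR-eGFP mice, and give neither ages nor whether the wild type mice received toxin, so genotype, toxin and source of the animals cannot be told apart. Nothing in the labels ties the libraries of a group to different animals, and p-values therefore reflect the spread among libraries alone, part of which may be technical.

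Matrix metalloproteinases are zinc-dependent enzymes that cut collagens, other matrix proteins and cell surface proteins, and most are made as inactive precursors. Some are secreted, while others are held in the cell membrane by a transmembrane segment or a glycolipid anchor. ADAMTS proteases are secreted relatives with thrombospondin repeats, and their best known substrates are procollagens, the proteoglycans aggrecan and versican, and von Willebrand factor. TIMPs bind to the active site of these enzymes, and RECK is a membrane-anchored inhibitor. TIMP2 has a further role, because a complex of TIMP2 with the membrane enzyme MMP14 captures the precursor of MMP2 for activation.

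The 19 libraries held 5.26 to 9.38 gigabases of aligned sequence (median 7.73), and 9209 to 10819 genes reached 1 FPKM, a level that corrects for transcript length and sequencing depth. Lgr5 itself was at 0.501 to 1.32 FPKM in the 4 Lgr5-DTR stromal libraries and at 25.8 to 77.6 FPKM in the 3 wild type stromal libraries. In luminal libraries it was at 0.554 to 0.671 FPKM in Lgr5-DTR and 1.54 to 1.99 FPKM in wild type, also without overlap. In basal libraries it was at 0.551 to 1.47 FPKM in Lgr5-DTR and 0.659 to 0.857 FPKM in wild type, with overlap. Because the receptor sits at Lgr5, these differences cannot tell loss of cells from a change of the allele. Markers placed each sort as labelled. The summed level of 5 basal keratin and basal lineage markers was 5656 to 8754 FPKM in basal libraries and at most 325 FPKM elsewhere, that of 5 luminal markers was 13774 to 25803 FPKM in luminal libraries and at most 4405 FPKM elsewhere, and that of 6 fibroblast markers was 2715 to 5336 FPKM in stromal libraries and at most 882 FPKM elsewhere. In 7 tables, spread over 5 of the 6 groups, some transcripts carried a low-data status that was absent from the other 12, and why the tables differ was not stated in the labels.

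Most of the expressed members were highest in stromal cells. Of the 47 genes, 16 had a mean of at least 10 FPKM in some group, 15 lay between 1 and 10 FPKM, and 16 stayed under 1 FPKM in every group mean. Of the 31 that reached a group mean of 1 FPKM, 22 were highest in a stromal group, 4 in a basal group (Adamts1, Adamts17, Timp3 and Mmp28) and 5 in a luminal group (Mmp7, Mmp15, Mmp17, Mmp24 and Timp4). In 12 genes no library reached 1 FPKM. These 12 include Mmp9, a gelatinase of neutrophils and macrophages, at no more than 0.650 FPKM, and Mmp8, the neutrophil collagenase, at no more than 0.117 FPKM. The map of levels over the libraries shows these blocks.

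**Figure D1:**
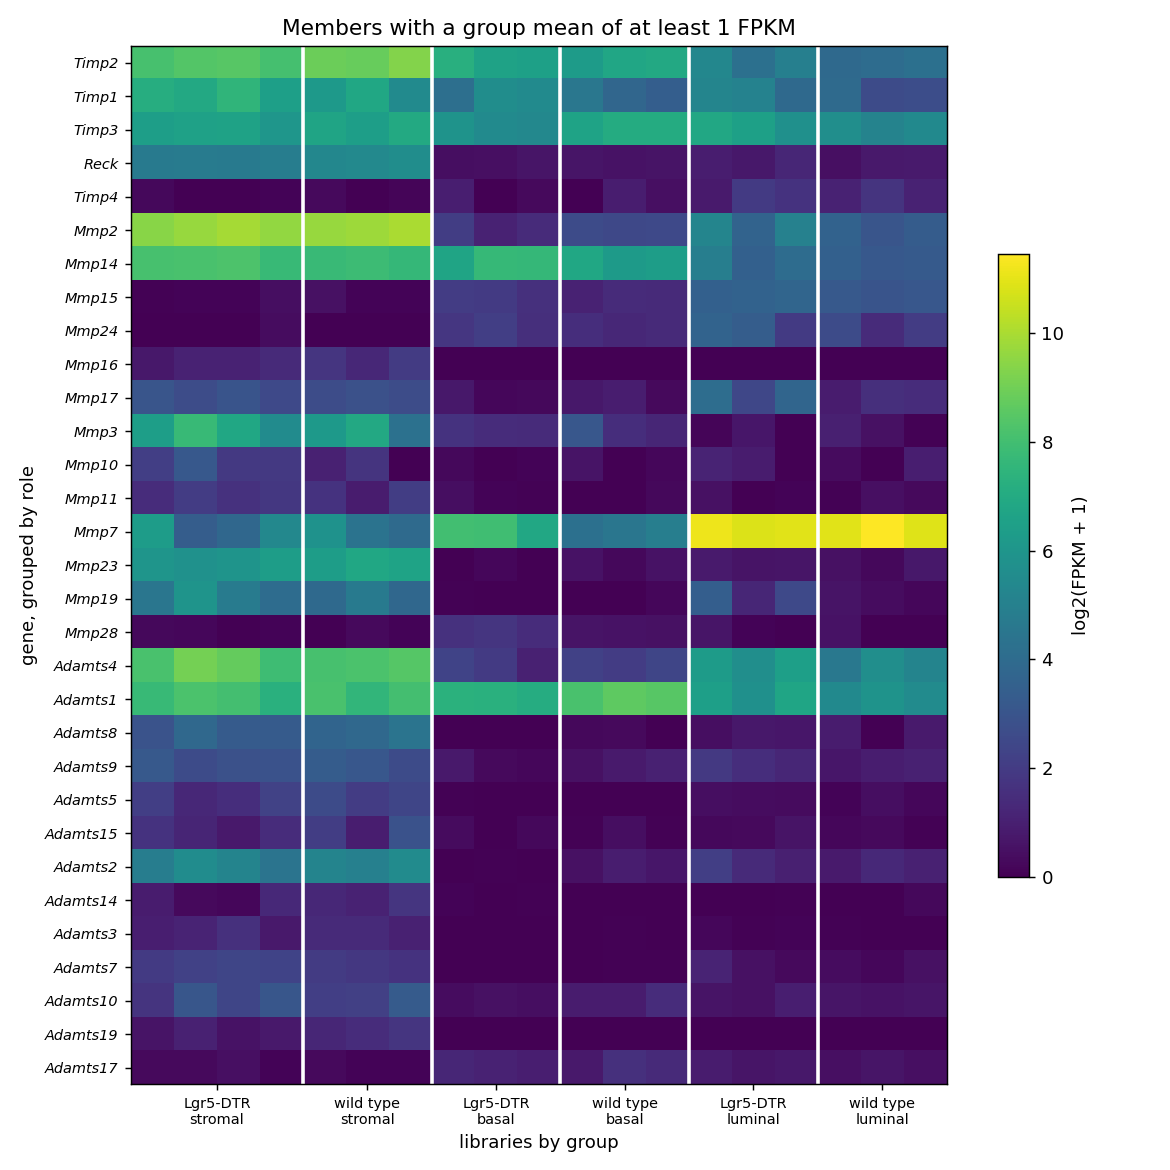
Level of the 31 genes whose mean reached 1 FPKM in some group, as log2(FPKM + 1), with genes in rows ordered by role and the 19 libraries in columns ordered by group. Most rows are brightest in the 7 stromal libraries, while Mmp7 is brightest in the 6 luminal libraries.

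Of the MMP genes, 10 lie side by side on chromosome 9, between 7272514 and 7699416 of mm10, a span of 426.903 kb. In order they are Mmp13, Mmp12, Mmp1b, Mmp3, Mmp1a, Mmp10, Mmp8, Mmp27, Mmp20 and Mmp7. The active genes of this cluster were not all highest in the same sort. Mmp7, at its far end, encodes matrilysin, the smallest MMP, an epithelial enzyme that activates defensins in the gut and cuts E-cadherin and syndecan. Mmp3 and Mmp10 encode stromelysins, which cut many matrix proteins and activate other MMP precursors. Only these 3 of the 10 had a group mean of 1 FPKM or more, and Mmp1b was listed at 0 in every library. The promoters of the 3 active cluster genes, and for contrast those of Adamts1 and Timp3, which are among the genes that fell in basal cells, are printed here 5′ to 3′ from RefSeq (GRCm38.p6). Each is the stretch of 300 bases around the annotated start, at chr9:7691840-7692139, chr9:7445572-7445871, chr9:7502092-7502391 and chr10:86300162-86300461 on the plus strand and chr16:85803064-85803363 on the minus strand. Capitals mark TGAGTCA, a site of the AP-1 factors on either strand, and TATAAA, the TATA box core on the printed strand. For Mmp7 the table lists a pair of starts, and the upstream one is shown. It was required to hold TGAGTCA, so nothing is read from that string being present in the printed Mmp7 stretch.
Mmp7: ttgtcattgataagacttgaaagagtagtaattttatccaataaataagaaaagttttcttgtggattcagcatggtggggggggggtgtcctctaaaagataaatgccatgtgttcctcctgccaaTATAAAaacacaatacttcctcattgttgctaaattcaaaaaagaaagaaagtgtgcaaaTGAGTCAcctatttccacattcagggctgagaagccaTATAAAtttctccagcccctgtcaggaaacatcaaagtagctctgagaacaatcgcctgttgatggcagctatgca
Mmp3: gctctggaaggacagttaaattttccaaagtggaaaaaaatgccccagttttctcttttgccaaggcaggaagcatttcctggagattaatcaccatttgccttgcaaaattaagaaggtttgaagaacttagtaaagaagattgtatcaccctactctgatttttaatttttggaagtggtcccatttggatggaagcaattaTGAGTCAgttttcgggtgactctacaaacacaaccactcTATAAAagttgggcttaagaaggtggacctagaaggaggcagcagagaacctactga
Mmp10: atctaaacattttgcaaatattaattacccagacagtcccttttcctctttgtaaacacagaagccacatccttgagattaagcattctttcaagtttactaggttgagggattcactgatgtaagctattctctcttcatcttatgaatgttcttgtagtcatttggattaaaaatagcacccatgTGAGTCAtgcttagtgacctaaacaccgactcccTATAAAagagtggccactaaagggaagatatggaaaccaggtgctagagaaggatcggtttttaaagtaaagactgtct
Adamts1: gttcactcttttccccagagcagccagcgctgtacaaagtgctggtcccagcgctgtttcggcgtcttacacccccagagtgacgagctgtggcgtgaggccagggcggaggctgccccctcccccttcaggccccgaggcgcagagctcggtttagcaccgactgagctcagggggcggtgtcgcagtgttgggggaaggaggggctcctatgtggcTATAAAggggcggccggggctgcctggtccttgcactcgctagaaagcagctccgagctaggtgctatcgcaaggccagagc
Timp3: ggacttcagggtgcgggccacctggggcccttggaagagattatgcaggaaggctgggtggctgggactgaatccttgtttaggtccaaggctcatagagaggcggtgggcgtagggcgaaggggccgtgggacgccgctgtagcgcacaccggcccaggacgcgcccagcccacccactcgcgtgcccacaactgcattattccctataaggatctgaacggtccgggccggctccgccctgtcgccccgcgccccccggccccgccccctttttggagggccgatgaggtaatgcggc

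Measured from its first base, TGAGTCA began 63 bases before the start in Mmp7, 46 in Mmp3 and 63 in Mmp10. TATAAA began 123 and 26 bases before it in Mmp7, 7 in Mmp3, 29 in Mmp10 and 32 in Adamts1, and neither string occurred in the printed Timp3 stretch. All 10 cluster genes and 23 of the other members were matched in the promoter table. A gene was counted when any of its listed promoters held the string, and in the cluster Mmp7 and Mmp12 have 2 each. The percentages of all promoters count single promoters, so the 2 measures are not alike. TGAGTCA was present in 7 of the 10 cluster genes, in 0 of the 23 others and in 5.20% of the 32851 promoters of the table. TATAAA was present in 8 of the 10, in 2 of the 23 and in 8.32% of all promoters, and both together in 7 of the 10 and in 0.624% of all promoters. The 7 genes with both include Mmp13, Mmp12, Mmp1b and Mmp1a, which stayed under 1 FPKM in every group mean, so the strings were shared by genes of the cluster at high and at low levels.

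**Figure D2:**
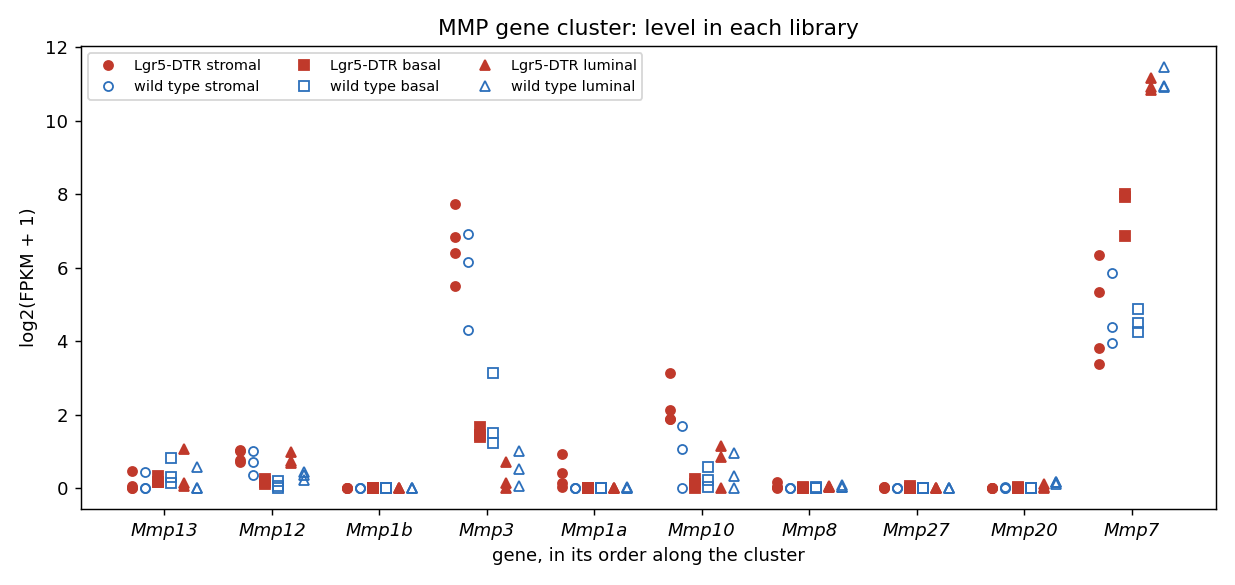
Level of the 10 genes of the MMP cluster in each of the 19 libraries as log2(FPKM + 1), in gene order along the chromosome, coloured by group. Mmp7 is high in the luminal libraries, Mmp3 in the stromal libraries, and 7 of the 10 genes lie near the axis.

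In wild type mice, stromal cells carried the highest levels of the gelatinase Mmp2, of its membrane activator Mmp14 and of the inhibitor Timp2. Mmp2 was at 821, 869 and 1029 FPKM in the stromal libraries, against 4.64 to 5.19 FPKM in basal and 7.24 to 11.3 FPKM in luminal libraries. Mmp14 was at 214, 231 and 195 FPKM in stromal libraries, against 113, 73.9 and 83.3 FPKM in basal and 7.96 to 10.3 FPKM in luminal libraries. Timp2 was at 473, 451 and 649.7 FPKM in stromal libraries, against 78.4 to 121 FPKM in basal and 14.1 to 17.6 FPKM in luminal libraries. No 2 sorts overlapped in any of the 3 genes. On the log2(FPKM + 1) scale, in which every difference below is given, Mmp2 was 7.27 higher in stromal than in basal cells (SE 0.18, limma with Benjamini-Hochberg adjustment over all tested genes, adjusted p = 5.23e-11) and 6.48 higher than in luminal cells (SE 0.18, adjusted p = 9.6e-11). Basal cells had little Mmp2 but exceeded luminal cells in Mmp14 by 3.17 (SE 0.19, limma adjusted p = 5.16e-08) and in Timp2 by 2.61 (SE 0.20, limma adjusted p = 3.99e-07).

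Other stromal genes were Mmp23, encoding a small MMP that sits in the membrane through its N-terminus, Mmp3, Mmp19, Adamts4, Adamts2, Adamts8, Reck and Timp1. Mmp23 was at 83.0, 112 and 101 FPKM and Reck at 38.0, 41.4 and 48.9 FPKM in wild type stromal libraries, and neither reached 1 FPKM in any wild type basal or luminal library. Mmp3 was at 70.5, 120.1 and 18.6 FPKM in wild type stromal libraries. Of the proteoglycan-cleaving enzymes, Adamts4 was at 279.8, 293 and 350.2 FPKM in stromal libraries, against 3.05 to 4.23 FPKM in basal and 23.0 to 49.2 FPKM in luminal libraries. Adamts1 had another order, with 285, 183 and 260.5 FPKM in stromal, 288, 396 and 354 FPKM in basal and 42.5, 58.4 and 45.9 FPKM in luminal libraries of wild type mice. It was 0.52 lower in stromal than in basal cells (SE 0.20, limma adjusted p = 0.0446), and its stromal and basal libraries did not overlap. Adamts1 and Adamts4 together gave 85.9 to 99.0% of the summed ADAMTS level in every library. Adamts2, which removes the N-propeptide of fibrillar procollagens, was at 31.2 to 45.3 FPKM in wild type stromal libraries and at no more than 1.48 FPKM in the other wild type libraries.

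Mmp7 was the most abundant member anywhere. In wild type mice it measured 57.1, 19.9 and 14.5 FPKM in stromal and 18.0, 21.7 and 28.5 FPKM in basal libraries, against 1962, 2825 and 1940.5 FPKM in luminal libraries. It made up 98.0 to 99.0% of the summed MMP level of wild type luminal cells. The difference between basal and luminal cells was -6.56 (SE 0.41, limma adjusted p = 2.48e-07), while stromal and basal cells overlapped (limma adjusted p = 0.722). Mmp15, a transmembrane relative of Mmp14, was at 0.0826 to 0.416 FPKM in stromal, 1.15 to 1.63 FPKM in basal and 6.79 to 8.18 FPKM in luminal libraries of wild type mice. Of 26 members tested among the wild type sorts, 20 were called higher and 3 lower in stromal than in basal cells, where 57.0% of all tested genes were called (29.2% higher and 27.8% lower). From stromal to luminal cells 22 were higher and 4 lower (67.8% of all genes called, 28.5% higher and 39.3% lower), and 4 were higher and 7 lower in basal than in luminal cells (62.3%, with 25.5% higher and 36.8% lower). Many of the 26 passed the expression filter through the stromal libraries alone and had to differ there, so nothing is read from these counts.

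In basal cells, Mmp7 and Mmp28 rose and Timp3, Adamts1 and Mmp2 fell in Lgr5-DTR mice. These 5 were the calls among 13 members tested (2 higher and 3 lower at an adjusted p under 0.05), where 11.0% of all 9755 tested genes were called, 6.5% higher and 4.46% lower. In 7 of the 13 the groups did not overlap, against 31.1% of all tested genes. Mmp28 reached 1 FPKM in Lgr5-DTR libraries alone, passed the expression filter through them and had to lie higher. Without genes that passed through 1 group alone, 4 of 12 members were called, 1 higher and 3 lower, beside 10.1% of all such genes, and 6 of the 12 did not overlap, beside 29.8%. In sorted bulk samples like these, fewer cells of a type and less RNA per cell cannot be told apart.

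Mmp7 was at 256, 244 and 115 FPKM in Lgr5-DTR basal libraries, against 18.0, 21.7 and 28.5 FPKM in wild type basal libraries. All Lgr5-DTR libraries lay above all wild type libraries, and the ratio of means was 9.02. The log2 difference was 3.06 (SE 0.31, limma adjusted p = 0.00162). Luminal cells carry far more Mmp7, so luminal markers are given beside it. The summed level of the 5 luminal markers was 3290.3 to 4405 FPKM in Lgr5-DTR and 3368 to 4043 FPKM in wild type basal libraries, made up mostly of Krt8 and Krt18, and 0 of the 4 tested were called. Pbsn, the secretory marker, was at 159, 90.2 and 30.9 FPKM in Lgr5-DTR basal libraries, against 116, 120.1 and 173 FPKM in wild type basal libraries, with overlap. Within each genotype the basal libraries had the same order in Pbsn as in Mmp7. The part of luminal cells in the basal level of Mmp7 was not tested. The share of Mmp7 in the summed MMP level was 35.8 to 68.6% in Lgr5-DTR basal libraries and 12.01 to 23.1% in wild type basal libraries. Mmp7 overlaps another annotated gene, AV064505, and its level rests on how reads were divided between them.

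Mmp28, encoding epilysin, a secreted enzyme of skin and testis, was at 2.10, 2.43 and 1.76 FPKM in Lgr5-DTR basal libraries, against 0.534, 0.470 and 0.448 FPKM in wild type basal libraries. The groups did not overlap, and the log2 difference was 1.06 (SE 0.19, limma adjusted p = 0.00998). No library of the other sorts reached 1 FPKM of Mmp28. Its call rests on the 3 Lgr5-DTR basal libraries that carried it past the expression filter, so it could not be tested without any of them.

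Timp3, an inhibitor that binds to the matrix and also blocks ADAMTS4, ADAMTS5 and ADAM17, was at 57.6, 43.7 and 39.4 FPKM in Lgr5-DTR basal libraries, against 98.0, 134 and 133 FPKM in wild type basal libraries. Adamts1, which cuts versican and aggrecan, was at 157, 156 and 136 FPKM in Lgr5-DTR basal libraries, against 288, 396 and 354 FPKM in wild type basal libraries. Neither gene's groups overlapped. Timp3 fell by 1.36 (SE 0.19, limma adjusted p = 0.00436) and Adamts1 by 1.20 (SE 0.17, limma adjusted p = 0.00386), and both calls held when any 1 of the 6 libraries was left out. Mmp2 was low in this sort, at 3.22, 1.16 and 1.68 FPKM in Lgr5-DTR and 5.19, 4.64 and 4.76 FPKM in wild type basal libraries, again without overlap. It fell by 1.02 (SE 0.25, limma adjusted p = 0.0352). That call was lost when any of the 3 wild type libraries or Lgr5-DTR basal replicate 2 or 3 was left out, with differences of -1.04 to -0.80 and adjusted p of 0.0805 to 0.138. It was also lost without the expression filter (adjusted p = 0.0949) and with a covariate for the low-data tables (adjusted p = 0.0502).

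Markers of several cell types also differed in the basal sort, in both directions. The summed level of the 6 fibroblast markers was 313 to 637 FPKM in Lgr5-DTR basal libraries and 732 to 882 FPKM in wild type basal libraries, nearly all of it Dcn, and the 2 tested markers were called lower. Col1a1, a defining fibroblast marker, was at no more than 0.459 FPKM in any basal library and Lum at no more than 0.183 FPKM. The summed level of the 5 smooth muscle markers was 10.4 to 13.6 FPKM in Lgr5-DTR and 32.2 to 41.7 FPKM in wild type basal libraries, with 1 of 3 tested called lower. The 5 basal epithelium markers summed to 5656 to 6114 FPKM in Lgr5-DTR and 7725 to 8754 FPKM in wild type basal libraries, with 2 called lower and 1 higher. Without overlap, 2 of these 5 lay higher and 3 lower in Lgr5-DTR. Among the lower, Trp63, a transcription factor of basal cells, was at 11.8 to 17.5 FPKM in Lgr5-DTR and 34.3 to 42.1 FPKM in wild type basal libraries. Of the higher, Col17a1 was at 181 to 285 FPKM in Lgr5-DTR and 86.5 to 152 FPKM in wild type. Krt5 was at 417 to 461 FPKM in Lgr5-DTR and 307 to 381 FPKM in wild type. The 5 endothelial markers summed to 8.18 to 19.7 FPKM in Lgr5-DTR and 4.17 to 6.68 FPKM in wild type basal libraries, with none of 3 tested called and 3 of the 5 higher without overlap. The part of these shifts in the falls and in the rises of Mmp7 and Mmp28 was not tested. The wild type stromal level of Adamts1, 183 to 285 FPKM, lay below that of wild type basal cells, that of Timp3, 86.1 to 123 FPKM, overlapped it, and that of Mmp2, 821 to 1029 FPKM, lay far above it.

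The remaining tested members of basal cells did not pass. Mmp14 was at 101, 203 and 196 FPKM in Lgr5-DTR basal libraries, against 113, 73.9 and 83.3 FPKM in wild type basal libraries (log2 difference 0.84, SE 0.29, limma adjusted p = 0.0984). Timp1, the inducible inhibitor, was at 17.2, 48.4 and 44.0 FPKM in Lgr5-DTR basal libraries, against 22.6, 12.8 and 9.72 FPKM in wild type basal libraries (1.18, SE 0.42, limma adjusted p = 0.111). In both genes replicate 1 of the Lgr5-DTR libraries lay within or near the wild type values and the other two above them. Without that library the differences were 1.17 for Mmp14 and 1.63 for Timp1, with limma adjusted p of 0.00197 and 0.00432. This was the only 1 of the 6 fits with a library left out that called either gene. Adjusted p reached 0.306 for Mmp14 and 0.315 for Timp1 in the others. That library was singled out by these same values, so nothing is read from its removal. Timp2 was at 149, 95.3 and 89.2 FPKM in Lgr5-DTR basal libraries, against 78.4, 108 and 121 FPKM in wild type basal libraries, and the groups overlapped. Mmp15, at 3.09, 2.86 and 2.04 FPKM in Lgr5-DTR and 1.15, 1.63 and 1.55 FPKM in wild type basal libraries, did not overlap between groups but missed the threshold (limma adjusted p = 0.0989).

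**Figure D3:**
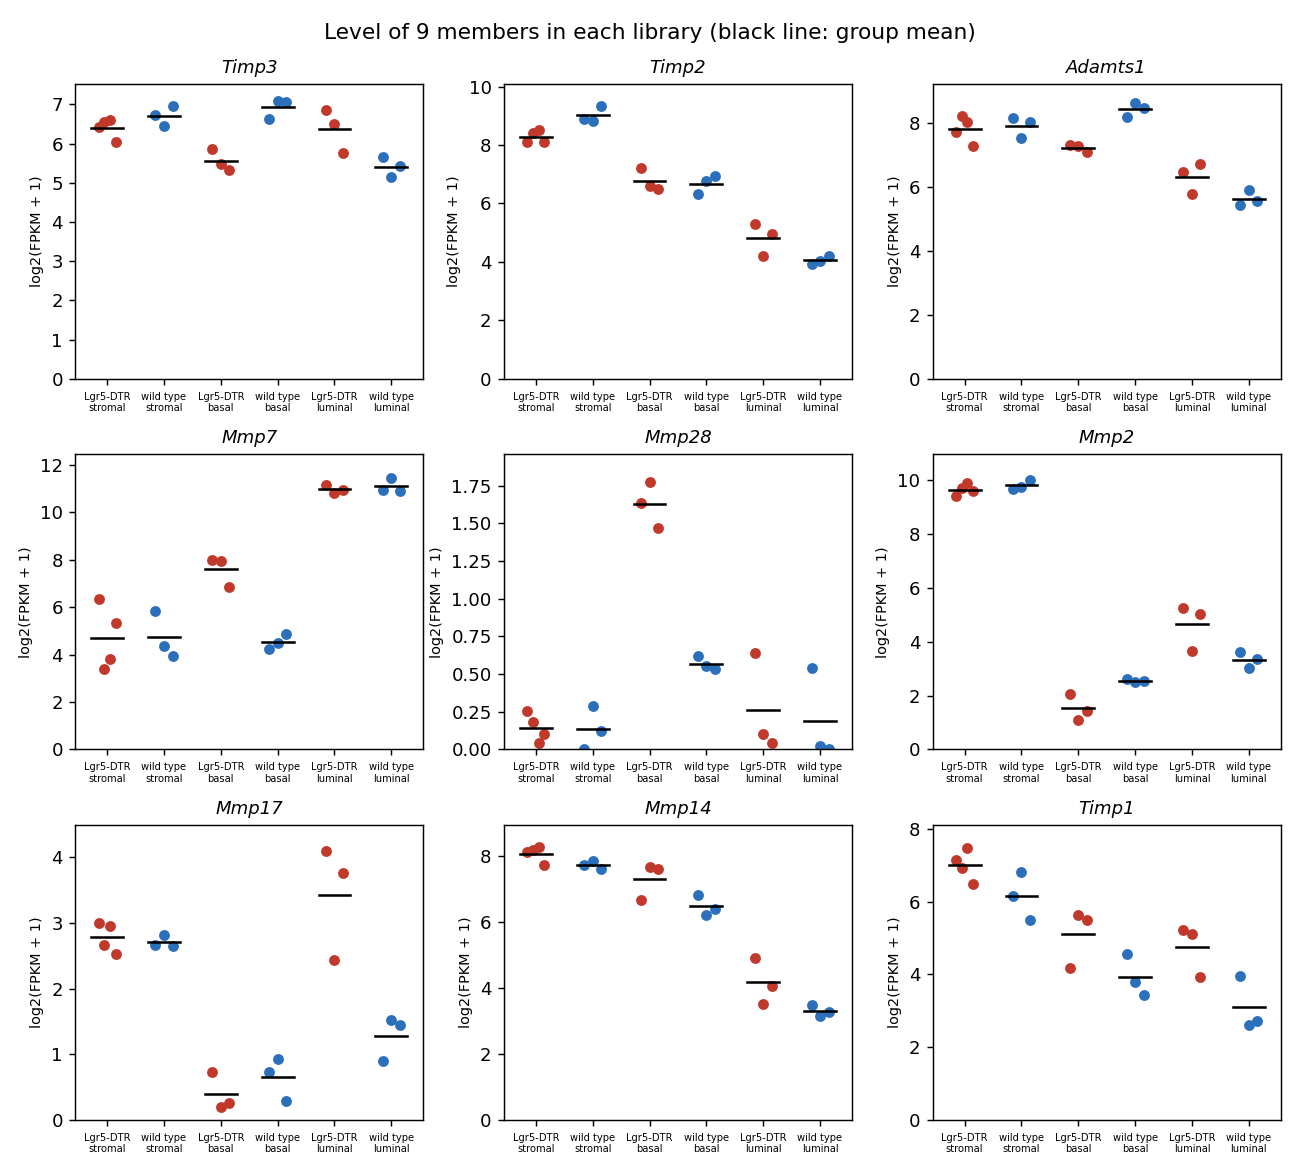
Level of 9 members in each library as log2(FPKM + 1), by sort and genotype (red points Lgr5-DTR, blue points wild type), with the group mean as a black line. In the basal sort Mmp7 lies higher in all 3 Lgr5-DTR libraries than in all 3 wild type libraries, and Timp3 and Adamts1 lie lower.

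In luminal cells, Mmp17 rose in Lgr5-DTR mice and no other member was called. The 1 call among 15 members tested stands beside 3.14% of all 10524 tested genes called, 2.62% as higher. Mmp17 encodes an MMP held to the membrane by a glycolipid anchor. It was at 16.0, 4.43 and 12.6 FPKM in Lgr5-DTR luminal libraries, against 0.854, 1.88 and 1.72 FPKM in wild type luminal libraries. The groups did not overlap, and the log2 difference was 2.14 (SE 0.41, limma adjusted p = 0.0297). The call was lost without Lgr5-DTR luminal replicate 1 (1.82, adjusted p = 0.0776) or without wild type luminal replicate 1, 2 or 3 (1.95 to 2.26, adjusted p of 0.051 to 0.122), and without the expression filter (adjusted p = 0.132). In wild type mice Mmp17 was at 5.30 to 6.08 FPKM in stromal cells, above luminal cells, while in Lgr5-DTR mice its mean was highest in the luminal sort, with overlap.

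The other luminal members lay mostly on the higher side without passing. Of the 15 tested, 14 had a positive difference, with a median of 0.86 beside 0.10 over all tested genes. In 9 the groups did not overlap, all of them higher in Lgr5-DTR, against 17.4% of all tested genes higher and 27.1% in either direction. An unadjusted p under 0.05 was reached by 11 of the 15 and by 22.7% of all tested genes. Mmp19, counted here, passed the expression filter through the Lgr5-DTR libraries alone and had to lie higher. Of the other 14 members, 13 had a positive difference, with a median of 0.81, and 8 did not overlap, all of them higher. Of all 10386 such genes, 6161 had a positive difference, with a median of 0.10. Without overlap were 26.1% of them, 1719 higher and 991 lower. Mmp19, an enzyme of stroma and vessels, was at 9.90, 1.35 and 4.84 FPKM in Lgr5-DTR luminal libraries, against 0.522, 0.294 and 0.143 FPKM in wild type luminal libraries (2.02, SE 0.49, limma adjusted p = 0.0636). Timp1 was at 36.4, 33.3 and 14.1 FPKM in Lgr5-DTR luminal libraries, against 14.6, 5.11 and 5.58 FPKM in wild type luminal libraries (1.65, SE 0.45, limma adjusted p = 0.0937). Mmp2 was at 36.8, 11.7 and 32.1 FPKM in Lgr5-DTR luminal libraries, against 11.3, 7.24 and 9.17 FPKM in wild type luminal libraries (1.32, SE 0.39, limma adjusted p = 0.103). Mmp2 and Mmp19 lay higher in every Lgr5-DTR library, and Timp1 overlapped in Lgr5-DTR replicate 3.

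Timp3 was at 115, 90.0 and 52.7 FPKM in Lgr5-DTR luminal libraries, against 49.3, 34.3 and 42.0 FPKM in wild type luminal libraries (0.96, SE 0.28, limma adjusted p = 0.0902). Adamts4 was at 78.6, 50.3 and 86.9 FPKM in Lgr5-DTR luminal libraries, against 23.0, 49.2 and 34.7 FPKM in wild type luminal libraries (1.02, SE 0.29, limma adjusted p = 0.0941). Mmp14 was at 29.3, 10.6 and 15.7 FPKM in Lgr5-DTR luminal libraries, against 10.3, 7.96 and 8.63 FPKM in wild type luminal libraries (0.86, SE 0.32, limma adjusted p = 0.157). None of the 3 overlapped between groups, though Adamts4 and Mmp14 came close in Lgr5-DTR replicate 2. Mmp7 was the only member with a negative difference, at 2284, 1829.6 and 1948 FPKM in Lgr5-DTR luminal libraries, against 1962, 2825 and 1940.5 FPKM in wild type luminal libraries, and the groups overlapped (-0.13, SE 0.22, limma adjusted p = 0.737).

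Some luminal members passed the threshold once a library was left out, and the count called higher was then 0 to 4. Without Lgr5-DTR luminal replicate 2, the limma adjusted p was 0.00625 for Mmp2 (difference 1.81) and 0.0376 for Timp2 (1.07). Without Lgr5-DTR luminal replicate 3, it was 0.00968 for Timp3 (1.28) and 0.0253 for Timp1 (2.06), and without wild type luminal replicate 1 it was 0.0291 for Timp1 (2.08). With other libraries left out, the limma adjusted p reached 0.317 for Mmp2, 0.400 for Timp2, 0.301 for Timp3 and 0.307 for Timp1. Each library whose removal gave a call was the one of its group nearest the other group in that gene, so nothing is read from these removals. Mmp19, Mmp2, Timp1 and Timp3 were also called when all 19 libraries shared 1 estimate of spread, with adjusted p of 0.0076 to 0.0354. The share of all tested genes called in that fit is not reported here.

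Markers of luminal and of other cells moved with the luminal result. The 5 luminal markers summed to 13774 to 17641 FPKM in Lgr5-DTR and 22982 to 25803 FPKM in wild type luminal libraries, with 1 of 5 called lower. Pbsn was at 9401, 7500 and 9647 FPKM in Lgr5-DTR luminal libraries, against 16876, 22090 and 19870 FPKM in wild type luminal libraries. The summed level of the 5 Schwann cell markers was 51.1 to 129 FPKM in Lgr5-DTR luminal libraries and 23.3 to 44.4 FPKM in wild type luminal libraries, while it did not exceed 0.878 FPKM in any stromal or basal library. Sox10, a transcription factor of glia, was at 64.0, 20.3 and 30.5 FPKM in Lgr5-DTR luminal libraries, against 5.24, 6.23 and 9.56 FPKM in wild type luminal libraries, and 1 of the 4 tested Schwann cell markers was called higher. S100b, of the same list, was at no more than 2.06 FPKM in any luminal library. Among fibroblast markers Col1a1, Col1a2 and Col3a1 were called higher, Col1a1 being at 38.7, 18.1 and 39.8 FPKM in Lgr5-DTR and 3.23, 4.51 and 5.45 FPKM in wild type luminal libraries. Dcn, of the same list, lay on the lower side with overlap, at 15.3, 9.69 and 7.38 FPKM in Lgr5-DTR and 34.6, 11.9 and 15.005 FPKM in wild type luminal libraries (-0.78, limma adjusted p = 0.277), and Lum and Pdgfra were at no more than 0.309 FPKM in any luminal library. The macrophage markers summed to 9.91 to 37.5 FPKM in Lgr5-DTR and 6.62 to 14.7 FPKM in wild type luminal libraries, with none of 4 tested called. Lgr5-DTR luminal replicate 2 was the lowest of its group in Sox10 and Col1a1 and also in Mmp17, Mmp2, Mmp19, Mmp14, Timp2, Adamts1 and Adamts4, whereas Timp1 and Timp3 were lowest in replicate 3. The part of these shifts in the luminal levels was not tested.

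In stromal cells, the sort in which Lgr5 was highest in wild type mice, no member was called. All 27 tested members missed the threshold in limma, where 1.17% of all 10689 tested genes were called, while 9 of the 27 had an unadjusted p under 0.05, against 11.5% of all tested genes. The groups did not overlap in 4 of the 27 (Mmp10 higher, Timp2, Reck and Adamts19 lower), against 11.2% of all tested genes, 1.8% higher and 9.39% lower. The median difference was -0.14 over the 27 members and -0.09 over all genes. When all 19 libraries shared 1 estimate of spread, 2 members were called lower, Reck (adjusted p = 0.0236) and Adamts19 (adjusted p = 0.0065). How many of all genes that fit called is not reported here.

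The inhibitors Timp2 and Reck gave the smallest p among the stromal members. Timp2 was at 277, 339, 361 and 272 FPKM in Lgr5-DTR stromal libraries, against 473, 451 and 649.7 FPKM in wild type stromal libraries. The log2 difference was -0.74 (SE 0.20, limma adjusted p = 0.127). Reck was at 25.3, 26.3, 24.4 and 28.4 FPKM in Lgr5-DTR stromal libraries, against 38.0, 41.4 and 48.9 FPKM in wild type stromal libraries (-0.69, SE 0.19, limma adjusted p = 0.159). In both genes every Lgr5-DTR library lay below every wild type library. Timp1 stood on the other side, at 142, 120.2, 179 and 88.3 FPKM in Lgr5-DTR stromal libraries, against 70.9, 112 and 44.5 FPKM in wild type stromal libraries, with overlap (0.85, SE 0.32, limma adjusted p = 0.313). Timp3 was at 84.9, 92.9, 95.9 and 65.0 FPKM in Lgr5-DTR stromal libraries, against 104, 86.1 and 123 FPKM in wild type stromal libraries, also with overlap (-0.30, SE 0.21, limma adjusted p = 0.688).

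The stromal proteases differed less than the spread between libraries or missed the threshold. Mmp2 was at 678, 834, 962 and 778 FPKM in Lgr5-DTR stromal libraries, against 821, 869 and 1029 FPKM in wild type stromal libraries (-0.16, SE 0.18, limma adjusted p = 0.843). Mmp14 was at 277, 291, 310.0 and 211 FPKM in Lgr5-DTR stromal libraries, against 214, 231 and 195 FPKM in wild type stromal libraries (0.34, SE 0.19, limma adjusted p = 0.567). Both genes overlapped between the groups. Mmp10 was at 3.34, 7.82, 2.69 and 2.70 FPKM in Lgr5-DTR stromal libraries and at 1.10 and 2.26 FPKM, and listed at 0, in wild type stromal libraries (1.33, SE 0.41, limma adjusted p = 0.202). Mmp3, of the same cluster, was at 84.1, 211, 112 and 44.7 FPKM in Lgr5-DTR stromal libraries, against 70.5, 120.1 and 18.6 FPKM in wild type stromal libraries, with wide overlap (limma adjusted p = 0.756). In both stromelysins and in Mmp19, at 15.8 to 60.2 FPKM in Lgr5-DTR and 13.1 to 24.5 FPKM in wild type stromal libraries, replicate 2 was the highest library of each group.

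Adamts4 and Adamts1, the leading stromal ADAMTS genes, overlapped between the groups. Adamts4 was at 287, 541, 429 and 241 FPKM in Lgr5-DTR stromal libraries, against 279.8, 293 and 350.2 FPKM in wild type stromal libraries (0.22, SE 0.27, limma adjusted p = 0.863). Adamts1 was at 209, 301, 261 and 154 FPKM in Lgr5-DTR stromal libraries, against 285, 183 and 260.5 FPKM in wild type stromal libraries (-0.09, SE 0.25, limma adjusted p = 0.962), a sign that turned positive under both other scalings, at 0.035 with TMM and 0.053 with quantile scaling. Mmp23 was at 62.5, 54.0, 60.3 and 83.7 FPKM in Lgr5-DTR stromal libraries, against 83.0, 112 and 101 FPKM in wild type stromal libraries, with overlap at a single library of each group (-0.60, SE 0.21, limma adjusted p = 0.279). Adamts8 was at 6.73 to 13.7 FPKM in Lgr5-DTR and 11.9 to 20.4 FPKM in wild type stromal libraries (-0.64, limma adjusted p = 0.395), and Adamts2 at 20.5 to 46.9 FPKM in Lgr5-DTR and 31.2 to 45.3 FPKM in wild type stromal libraries (limma adjusted p = 0.859).

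Fibroblast markers summed to 2715 to 3319.8 FPKM in Lgr5-DTR stromal libraries and 5121 to 5336 FPKM in wild type stromal libraries, with 2 of 6 called lower, and smooth muscle markers to 291 to 409.9 FPKM in Lgr5-DTR and 195 to 283 FPKM in wild type stromal libraries, with none of 5 called. The part of this shift in the levels of Timp2, Reck and Mmp23 was not tested. Within each library, the ratio of Timp2 to Mmp14 in FPKM was 0.998 to 1.29 in Lgr5-DTR stromal cells and 1.95 to 3.33 in wild type stromal cells, without overlap. The ratio of Timp1 to Timp3 was 1.29 to 1.86 in Lgr5-DTR stromal cells and 0.361 to 1.30 in wild type stromal cells, which overlap by a narrow margin. In basal cells the ratio of Timp1 to Timp3 was 0.298 to 1.12 in Lgr5-DTR and 0.0728 to 0.231 in wild type libraries. These ratios were chosen after the levels were known and were not tested, and a ratio shows unequal change and not which gene changed.

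**Figure D4:**
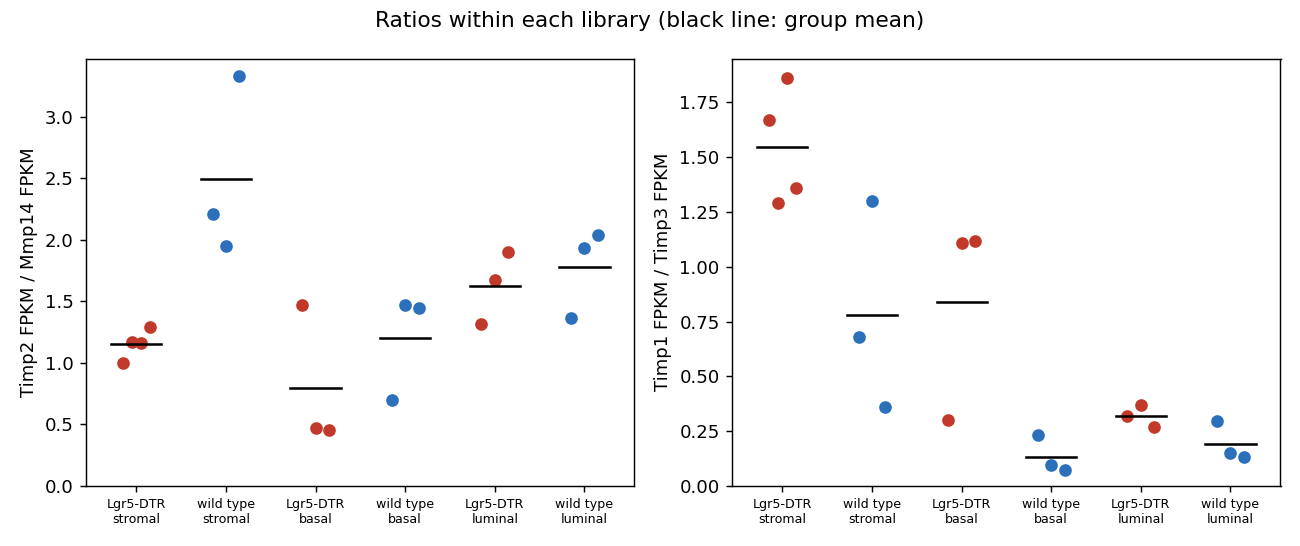
Ratios of FPKM within each library by sort and genotype, with the group mean as a black line. In the stromal sort the ratio of Timp2 to Mmp14 lies at 0.998 to 1.29 in the 4 Lgr5-DTR libraries, all below the 1.95 to 3.33 of the 3 wild type libraries.

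The genotype difference itself differed between sorts for 6 combinations of gene and sorts. Between basal and luminal cells 4 of 10 members tested in both were called, beside 4.26% of all tested genes, 1.09% higher and 3.18% lower. The difference was larger in basal than in luminal cells for Mmp7, by 3.19 (SE 0.40, limma adjusted p = 0.00225). It was more negative in basal cells for Timp3, at -2.32 (SE 0.37, limma adjusted p = 0.00582), for Adamts1, at -1.89 (SE 0.32, limma adjusted p = 0.00731), and for Mmp2, at -2.33 (SE 0.50, limma adjusted p = 0.0221). Timp3 and Mmp2 were thus lower in all Lgr5-DTR basal libraries and higher in all Lgr5-DTR luminal libraries than in the wild type libraries of the same sort. Adamts1 overlapped in luminal cells, at 87.3, 53.5 and 105 FPKM in Lgr5-DTR and 42.5, 58.4 and 45.9 FPKM in wild type luminal libraries. The calls for Mmp7, Timp3 and Adamts1 held when any 1 of the 12 libraries was left out. That for Mmp2 was lost without any of 7 libraries, replicates 2 and 3 of both basal groups, replicate 1 of the Lgr5-DTR luminal group and replicates 2 and 3 of the wild type luminal group, with adjusted p of 0.0506 to 0.0689.

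Between stromal and luminal cells 2 of 12 members were called, both lower, beside 2.51% of all tested genes, 0.0756% higher and 2.43% lower. They were Mmp17, at -2.07 (SE 0.46, limma adjusted p = 0.0245), and Timp2, at -1.51 (SE 0.34, limma adjusted p = 0.0270). For Timp2 every Lgr5-DTR library was lower in stromal cells and, at 38.5, 17.6 and 29.8 FPKM against 14.1, 15.4 and 17.6 FPKM in wild type, higher in luminal cells, by a narrow margin. Each of these calls was lost without any of 7 of the 13 libraries, at adjusted p up to 0.0818 for Mmp17 and 0.0837 for Timp2. For both these were replicates 1 and 3 of the Lgr5-DTR luminal, replicate 1 of the wild type luminal and replicates 1 and 3 of the wild type stromal group. To them came wild type luminal replicate 3 and stromal replicate 2 for Mmp17, and wild type luminal replicate 2 and Lgr5-DTR stromal replicate 1 for Timp2. With libraries scaled by TMM both calls were also lost, at adjusted p of 0.0565 for Mmp17 and 0.0734 for Timp2. Between stromal and basal cells 0 of 9 members were called in limma, beside 2.98% of all tested genes, 0.891% higher and 2.09% lower, and 5 of the 9 had an unadjusted p under 0.05, against 14.5% of all. With TMM scaling 2 were called higher. Without Lgr5-DTR basal replicate 1 or Lgr5-DTR stromal replicate 4, 2 members were also called higher, and without Lgr5-DTR stromal replicate 1 there was 1 lower call. Shares of all tested genes called in these other fits are not reported here.

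**Figure D5:**
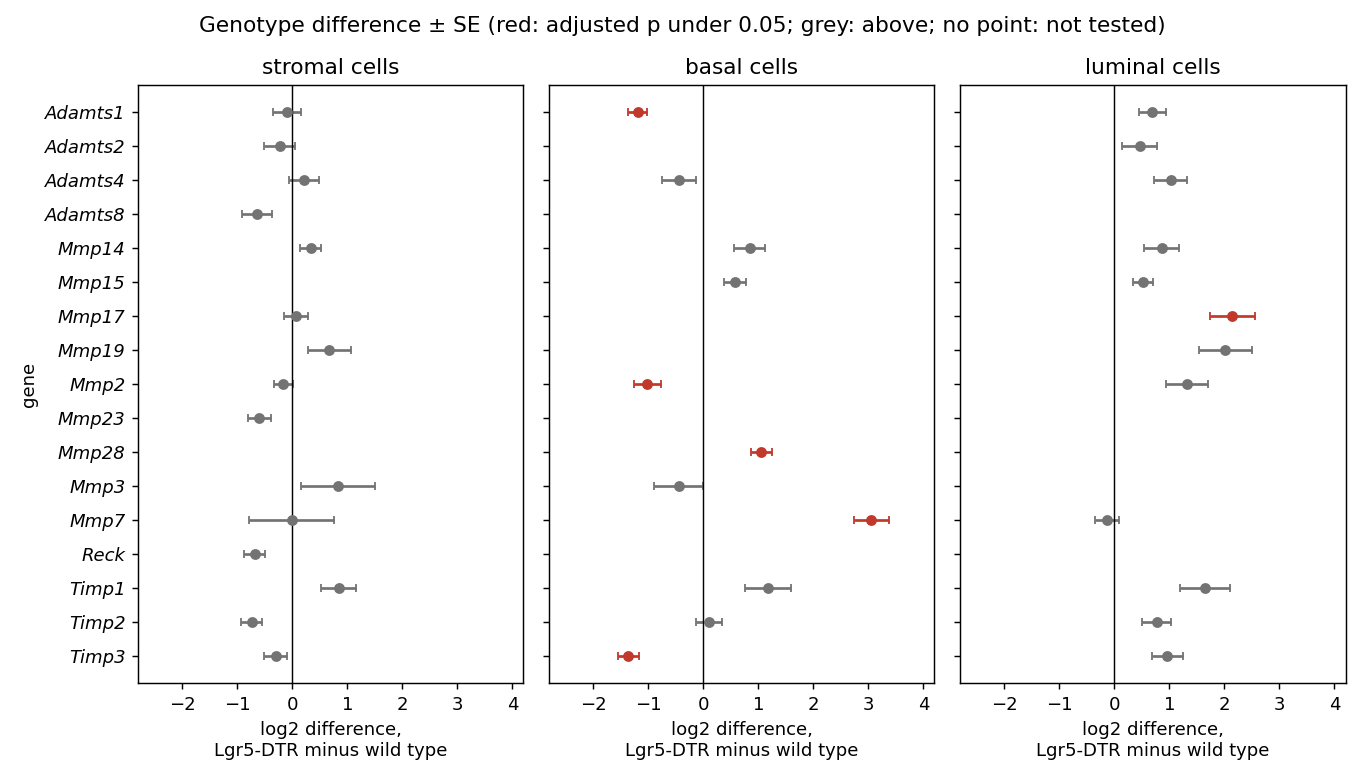
Genotype difference of the named members on the log2(FPKM + 1) scale, Lgr5-DTR minus wild type, with its SE, in stromal, basal and luminal cells from left to right. Red points had an adjusted p under 0.05, and a gene without a point was not tested in that sort. Mmp7 lies at 3.06 in basal cells, at -0.01 in stromal cells and at -0.13 in luminal cells.

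Around the family, 71 genes of connected proteolytic pathways were read in the same fits. In stromal cells 0 of 40 tested were called higher and 4 lower, in basal cells 6 of 39 higher and 3 lower, and in luminal cells 4 of 37 higher and 0 lower. The shares of all tested genes called in either direction were 1.17% for the stromal, 11.0% for the basal and 3.14% for the luminal sort, and no list is set apart from them by a test. In basal cells Plau and Ctss reached 1 FPKM in Lgr5-DTR libraries alone and Vcan in wild type libraries alone, so the directions of these 3 calls were fixed by the expression filter. Without the genes that passed through 1 group alone, 4 of 35 were called higher and 2 lower in basal cells, beside 10.1% of all such genes called in either direction. Plasminogen activation, which yields the plasmin that activates several MMP precursors, had 2 of 8 tested genes called higher in basal cells. Plat, the tissue activator, averaged 54.9 ± 22.4 FPKM in Lgr5-DTR and 8.81 ± 1.32 FPKM in wild type basal cells (SD, n = 3 each, limma adjusted p = 0.00179). Plau, urokinase, averaged 3.42 ± 1.43 FPKM in Lgr5-DTR and 0.379 ± 0.289 FPKM in wild type basal cells (SD, n = 3 each, limma adjusted p = 0.00813).

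Among the type II transmembrane serine proteases and their inhibitors, 2 of 5 tested genes were called higher in basal cells, the inhibitor Spint1 (136 ± 32.5 FPKM in Lgr5-DTR and 40.7 ± 6.49 FPKM in wild type, SD, n = 3 each, limma adjusted p = 0.00240) and Tmprss2, and Hpn was called higher in luminal cells. Of the proteoglycan substrates, 3 of 4 tested were called lower in basal cells, namely Dcn, Fmod and Vcan, the last of these at 0.192 ± 0.116 FPKM in Lgr5-DTR and 1.43 ± 0.0763 FPKM in wild type (SD, n = 3 each, limma adjusted p = 0.0115), and Dcn was lower in stromal cells too. Among ADAMTS-like proteins, which lack the protease domain, Adamtsl4 fell in stromal cells to 3.89 ± 0.667 FPKM (SD, n = 4) in Lgr5-DTR, against 15.2 ± 4.99 FPKM (SD, n = 3) in wild type (limma adjusted p = 0.00991). Adamtsl1 rose in luminal cells, at 13.8 ± 9.04 FPKM in Lgr5-DTR and 1.15 ± 0.277 FPKM in wild type (SD, n = 3 each, limma adjusted p = 0.0398). Of the procollagen-processing genes, Pcolce2 fell in stromal cells (3.23 ± 0.777 FPKM, SD, n = 4, in Lgr5-DTR and 16.7 ± 4.16 FPKM, SD, n = 3, in wild type, limma adjusted p = 0.00243), and Bmp1, the procollagen C-proteinase, rose in luminal cells (20.8 ± 11.7 FPKM in Lgr5-DTR and 2.82 ± 0.199 FPKM in wild type, SD, n = 3 each, limma adjusted p = 0.0207). Cathepsin genes Ctss and Ctsh rose in basal cells and Ctss in luminal cells. None of the tested ADAM proteases and proprotein convertases was called in any sort, though Adam17 lay higher in every Lgr5-DTR basal library than in every wild type basal library (limma adjusted p = 0.0545), as 31.1% of all tested genes lay without overlap in one direction or the other.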

How the data were processed

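RNA of sorted cells was amplified with SMART-Seq v4, made into libraries with Nextera XT and sequenced on an Illumina HiSeq instrument, per the labels' protocols. For each RefSeq transcript the authors deposited an FPKM value, made with TopHat2 and Cufflinks on mm10, per the submitters' processing notes, with versions not given in the sources used here. Each deposited table also gives read coverage, a signal from which, times transcript length, depth was computed, and an upper FPKM limit and a status, per the file headers. No counts were used, so no counting intervals are given, and precision comes from replicates.

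FPKM were summed per symbol. Genes with at least 3 libraries at 1 FPKM, and without a failed or capped status in the sort, were tested on log2(FPKM + 1), which understates changes of low genes. Each sort was fitted alone in limma 3.58.1 (R 4.3.3, statmod 1.5.0, trend and robust empirical Bayes), the 9 wild type libraries in a fit of their own, and genotype-by-sort interactions over the libraries of both sorts. A gene was called when its p, adjusted after Benjamini and Hochberg over all tested genes, was under 0.05. Joins used pandas 2.3.3 and numpy 2.4.6 in Python 3.11.15. The scripts were tested on simulated data. The members and lists were chosen with earlier results of these data known. Named members are those called in a genotype comparison or interaction or with a mean of 10 FPKM or more in some group, 17 in all. Lower members named beside them were chosen after their values were seen, apart from near relatives of a named one. From each other pathway list at most the 4 genes with the smallest p are named, and some genes of those lists and of the marker lists are not reported here. Promoters came from RefSeq (GRCm38.p6).

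Where transcripts overlap, Cufflinks estimates how their reads divide, so levels of Timp1, Timp2, Timp3, Timp4, Mmp7, Mmp19, Mmp20, Mmp24, Mmp28 and Adamts10, which overlap other annotated genes, are uncertain. Alternatives were a pseudocount of 0.1, no expression filter, TMM and quantile scaling, each library left out in turn, a replicate block, all 19 libraries in 1 fit, a covariate for the low-data tables, and the 10 Lgr5-DTR libraries for differences between sorts.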

Additional observations from a re-analysis of the deposited data

Results flagged for a closer look

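Within the 4 Lgr5-DTR stromal libraries, Mmp15 was at 0.346 FPKM in replicate 4 and at 0.0624 to 0.0956 FPKM in the other libraries, a gap that exceeds the Dixon criterion for 4 samples. The 17 named members were examined in this group, 1 was singled out, and chance singles out about 1 in 20 groups. All 4 values lie under 1 FPKM, and wild type stromal libraries were at 0.0826 to 0.416 FPKM.

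The genotype difference differed between sorts in 6 tests, on the log2(FPKM + 1) scale. Between basal and luminal cells the difference of differences was 3.19 for Mmp7, -2.32 for Timp3, -1.89 for Adamts1 and -2.33 for Mmp2. Between stromal and luminal cells it was -2.07 for Mmp17 and -1.51 for Timp2. In the Lgr5-DTR luminal libraries, whose levels enter all 6, the summed Schwann cell markers were at 51.1 to 129 FPKM, against 23.3 to 44.4 FPKM in wild type luminal libraries, and their part in these results was not tested.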

How the results depend on the processing

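For members called in stromal cells (0 higher and 0 lower), the replicate block gave 2 higher, Mmp10 and Mmp19 (adjusted p of 0.00269 and 0.0118), and 4 lower, Timp2, Reck, Mmp23 and Adamts14 (adjusted p of 0.0294 to 0.0457), and all 19 libraries in 1 fit gave 2 lower. In basal cells (2 higher, 3 lower) the replicate block gave 1 higher and 1 lower, losing Mmp28 (adjusted p = 0.0766), Timp3 (adjusted p = 0.0547) and Mmp2 (adjusted p = 0.0987). Mmp2 also lost its call without the expression filter and with the low-data covariate (adjusted p of 0.0949 and 0.0502). In luminal cells (1 higher) all libraries in 1 fit gave 5, the replicate block 5, the low-data covariate 4, a pseudocount of 0.1 gave 2 and no filter 0. For basal minus luminal in wild type cells (7 lower), the Lgr5-DTR libraries gave 13 lower. With TMM scaling the stromal minus basal difference of the genotype effect gave 2 higher (0 otherwise) and the stromal minus luminal one 0 lower (2 otherwise). The shares of all tested genes called under these settings, and with a library left out, are not reported here. A change in the count of members is therefore not read as a result about the members. The numbers were not taken to pair the libraries, since in no set of pairs did every correlation of deviations exceed 0.1: same-numbered libraries correlated at -0.486 to 0.463 across genotypes (-0.0416 to 0.463 in stromal cells), at -0.0165 to 0.355 across wild type sorts and at 0.0858 to 0.323 across Lgr5-DTR sorts. Lgr5-DTR stromal replicate 4 has no partner in that block.

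With each library left out in turn, calls numbered 0 to 0 in stromal cells in both directions, 1 to 3 higher and 2 to 3 lower in basal cells, and 0 to 4 higher and 0 to 0 lower in luminal cells. Among wild type sorts they numbered 10 to 20 higher and 2 to 3 lower for stromal minus basal, 12 to 22 higher and 3 to 4 lower for stromal minus luminal, and 4 to 5 higher and 4 to 7 lower for basal minus luminal. Leaving out a wild type stromal library left 16 members to test in place of 26, and gave the lowest counts of higher calls in both stromal comparisons. The genotype effect gave 0 to 2 higher and 0 to 1 lower for stromal minus basal, 0 to 0 higher and 0 to 3 lower for stromal minus luminal, and 1 to 1 higher and 2 to 4 lower for basal minus luminal.

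Signs turned only for differences that were not called. In stromal cells Adamts1 went to 0.035 (TMM), 0.053 (quantile) and 0.089 (replicate block), Mmp2 to 0.085 (quantile), and Mmp7 to 0.11 (TMM), 0.081 (quantile) and 0.29 (low-data covariate). With a library left out, the stromal difference ranged from -0.28 to 0.089 for Adamts1, from -0.00074 to 0.16 for Mmp17 and from -0.56 to 0.55 for Mmp7, the basal one from -0.81 to 0.14 for Mmp3 and from -0.13 to 0.24 for Timp2, and the luminal one from -0.23 to 0.044 for Mmp7. The cause of these changes was not tested. The median of all genes shifted with TMM and quantile scaling by 0.108 and 0.114 in stromal cells, by -0.119 and -0.169 in luminal cells, by less than 0.1 in basal cells, by up to 0.21 between wild type sorts, and with TMM by 0.117 to 0.175 in the differences of the genotype effect.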

Other observations

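Adamts2 has a long and a short annotated transcript. The short form was estimated at 0 to 56.1% of the gene's FPKM in the 4 Lgr5-DTR stromal libraries and at 15.01 to 34.7% in the 3 wild type stromal libraries, so the spread within the Lgr5-DTR group covers that of the wild type group. Some members lie next to each other outside the chromosome 9 cluster without sharing a level. Adamts1 and Adamts5 are 55.041 kb apart on chromosome 16, and while Adamts1 was at 154 to 301 FPKM in Lgr5-DTR and 183 to 285 FPKM in wild type stromal libraries, Adamts5, an aggrecan-cleaving enzyme of cartilage, was at 1.46 to 3.74 FPKM in Lgr5-DTR and 3.15 to 5.14 FPKM in wild type stromal libraries.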
